A study of Mus musculus with 30 samples.

Results

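Ion channel genes were examined by genotype and polarization state in 30 RNA-seq libraries of mouse bone marrow-derived macrophages. They were taken as all protein-coding genes whose symbols begin with Kcn, Scn, Cacn, Hcn, P2rx, Clcn or Clic, or with Trpc, Trpm or Trpv and a digit, without Scnm1. This gave 185 genes of the 55414 in the count tables. PolyA-selected RNA came from macrophages grown out of bone marrow for 7 days in medium with 15 or 20% L929-conditioned medium, which supplies the growth factor M-CSF. The marrow came from transgenic TRα1PV mice, whose thyroid hormone receptor α1 carries the PV mutation, or from WT mice. Cells of each genotype were treated with 20 ng/mL lipopolysaccharide and 20 ng/mL interferon-γ (M1), with 20 ng/mL interleukin-4 (M2), or left unpolarized (M0), with 5 libraries in each of the 6 groups. The labels do not state the strain, age or sex of the mice, the number of mutant alleles or how long the stimulation lasted. The labels number the 5 libraries of a group as biological replicates without naming animals or cultures, so p-values measure the spread between these libraries, which may in part be technical.

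Ion channels are membrane proteins that let potassium, sodium, calcium or chloride ions cross, opened by voltage, by ligands such as extracellular ATP, by intracellular calcium or by temperature and stretch. In macrophages, potassium channels set the membrane potential that drives calcium entry, and potassium leaving the cell through ATP-gated P2X7 and two-pore-domain channels is a known trigger of the NLRP3 inflammasome. ClC chloride-proton exchangers serve endosomes and lysosomes, whose acidification digests what the cell has engulfed. Thyroid hormone acts through nuclear receptors that switch genes on or off, and the PV mutant of TRα1 does not bind the hormone and blocks the normal receptors.

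The 250 bases before the transcription start are shown for 5 genes on which the results turn. Clic5 in M1 and Kcnd3 in M2 are among the genes that changed most, Kcnj9 and Kcnj10 are neighbours on chromosome 1 that fell together in M1, and Kcnk13 responded to M1 polarization in opposite directions in the genotypes. The sequences are RefSeq's for build GRCm38.p6, 5′ to 3′ on the strand of the gene, and they were matched by symbol (the counts themselves were made on GRCm39). Capitals mark a searched motif, TTC and GAA with 4 bases between them (the STAT6 type, after the factor that interleukin-4 activates).
Clic5, chr17:44188322-44188571, plus strand: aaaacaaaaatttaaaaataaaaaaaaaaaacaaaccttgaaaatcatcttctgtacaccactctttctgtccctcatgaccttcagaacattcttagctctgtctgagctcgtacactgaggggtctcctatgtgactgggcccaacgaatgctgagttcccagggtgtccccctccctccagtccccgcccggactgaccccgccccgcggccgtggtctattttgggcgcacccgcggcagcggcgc
Kcnd3, chr3:105451640-105451889, plus strand: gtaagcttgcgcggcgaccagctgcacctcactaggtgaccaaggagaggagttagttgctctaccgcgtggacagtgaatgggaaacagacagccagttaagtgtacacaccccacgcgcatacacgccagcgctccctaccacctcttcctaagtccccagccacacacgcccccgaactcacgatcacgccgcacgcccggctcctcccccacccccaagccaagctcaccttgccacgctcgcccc
Kcnj9, chr1:172329323-172329572, minus strand: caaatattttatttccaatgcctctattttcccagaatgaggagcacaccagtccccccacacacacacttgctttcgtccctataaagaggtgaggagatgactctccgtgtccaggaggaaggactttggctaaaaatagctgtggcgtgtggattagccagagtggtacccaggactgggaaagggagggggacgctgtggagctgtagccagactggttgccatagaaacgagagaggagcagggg
Kcnj10, chr1:172340960-172341209, plus strand: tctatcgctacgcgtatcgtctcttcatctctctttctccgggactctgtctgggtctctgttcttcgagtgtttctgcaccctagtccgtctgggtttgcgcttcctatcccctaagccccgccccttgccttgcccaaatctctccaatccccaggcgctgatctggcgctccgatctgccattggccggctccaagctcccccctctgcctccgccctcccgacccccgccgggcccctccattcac
Kcnk13, chr12:99964249-99964498, plus strand: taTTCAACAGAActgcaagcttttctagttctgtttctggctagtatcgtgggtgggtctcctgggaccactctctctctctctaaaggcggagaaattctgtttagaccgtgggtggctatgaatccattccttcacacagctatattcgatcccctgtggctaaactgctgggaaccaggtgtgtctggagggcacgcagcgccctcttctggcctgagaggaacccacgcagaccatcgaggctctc
Of these 5 windows, that of Kcnk13 held a STAT6-type match and the others held none of the motifs below. The search read both strands of 300-base windows that include 50 bases after the start. The table held windows for 139 of the 185 genes and for 45 of the 61 that could be tested below. Among these 45, the STAT6-type motif stood in 3 (6.7%, against 8.0% of all 27025 genes in the table), Cacng6, Kcnk13 and Trpm3. TGACTCA, the AP-1 motif, stood in Clic1 and P2rx7 (4.4%, against 5.9% of all genes). A direct repeat of AGGTCA with 4 bases between, the DR4 type of thyroid hormone response element, was found in none of the 45 and in 4 genes of the whole table. A match describes these letters only.

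Libraries held 23015952 to 59086252 reads in genes. WT M0 replicate 2 stood apart, with 4.56% mitochondrial reads against a median of 1.42% in its group and a correlation of 0.984 with the rest of its group, where each other library reached at least 0.992. Counts without it are given beside the comparisons it enters. The macrophage markers (8 genes, among them Csf1r and Adgre1) were read in every group. Their sum had a median of 8724 CPM (read counts scaled to a common library total) in TRα1PV M1, against 29932 CPM in TRα1PV M0, and of 9353 CPM in WT M1, against 31387 CPM in WT M0. The part of this in the M1 responses was not tested. The M1 markers summed to 14152 to 18581 CPM in TRα1PV M1 and 16082 to 17612 CPM in WT M1 libraries, against at most 34.6 CPM in any library of another state. Markers of neurons and muscle, tissues known for many of these channels, each summed to at most 3.42 CPM in any library. Thra, the gene of the mutated receptor, was read at 41.7 to 61.1 CPM in the 15 TRα1PV libraries and at 15.6 to 35.0 CPM in the 15 WT libraries.

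Most ion channel genes were silent or nearly so in these macrophages. Of the 185, 42 had no read in any library and 82 more had too few reads to be tested, which left 61. The filter kept genes with about 10 reads in at least 5 libraries. The gene just inside it was Cacna1h, with 127 reads in all, and the gene just outside was Hcn3, with 211 reads. A gene that passed only through the group in which it is high had to differ between groups. Shares among the 61, and tests of such a gene, therefore describe these genes only. By family, 8 of 9 Clcn, 3 of 5 Clic, 5 of 7 P2rx and 4 of 8 Trpm genes were tested, but only 7 of 40 voltage-gated potassium channels, 4 of 14 sodium channels, 1 of 4 Hcn and 1 of 9 genes with a Trpc symbol. That last one is Trpc4ap, which encodes a protein that binds a TRPC channel and is not a channel itself. Kcnma1, the large-conductance calcium-activated potassium channel reported in macrophages, had 6 reads in all 30 libraries. Reads on the 185 genes made up 0.535 to 0.553% of gene reads in TRα1PV M1 and 0.553 to 0.624% in WT M1 libraries, and 0.373 to 0.386% in TRα1PV M2 and 0.341 to 0.366% in WT M2 libraries. The share was 0.257 to 0.282% in TRα1PV M0 and 0.253 to 0.292% in WT M0 libraries. CPM values are not divided by gene length, so they are compared between groups and not between genes. In RNA from whole cultures, fewer cells of a kind and less RNA per cell cannot be told apart.

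**Figure D1:**
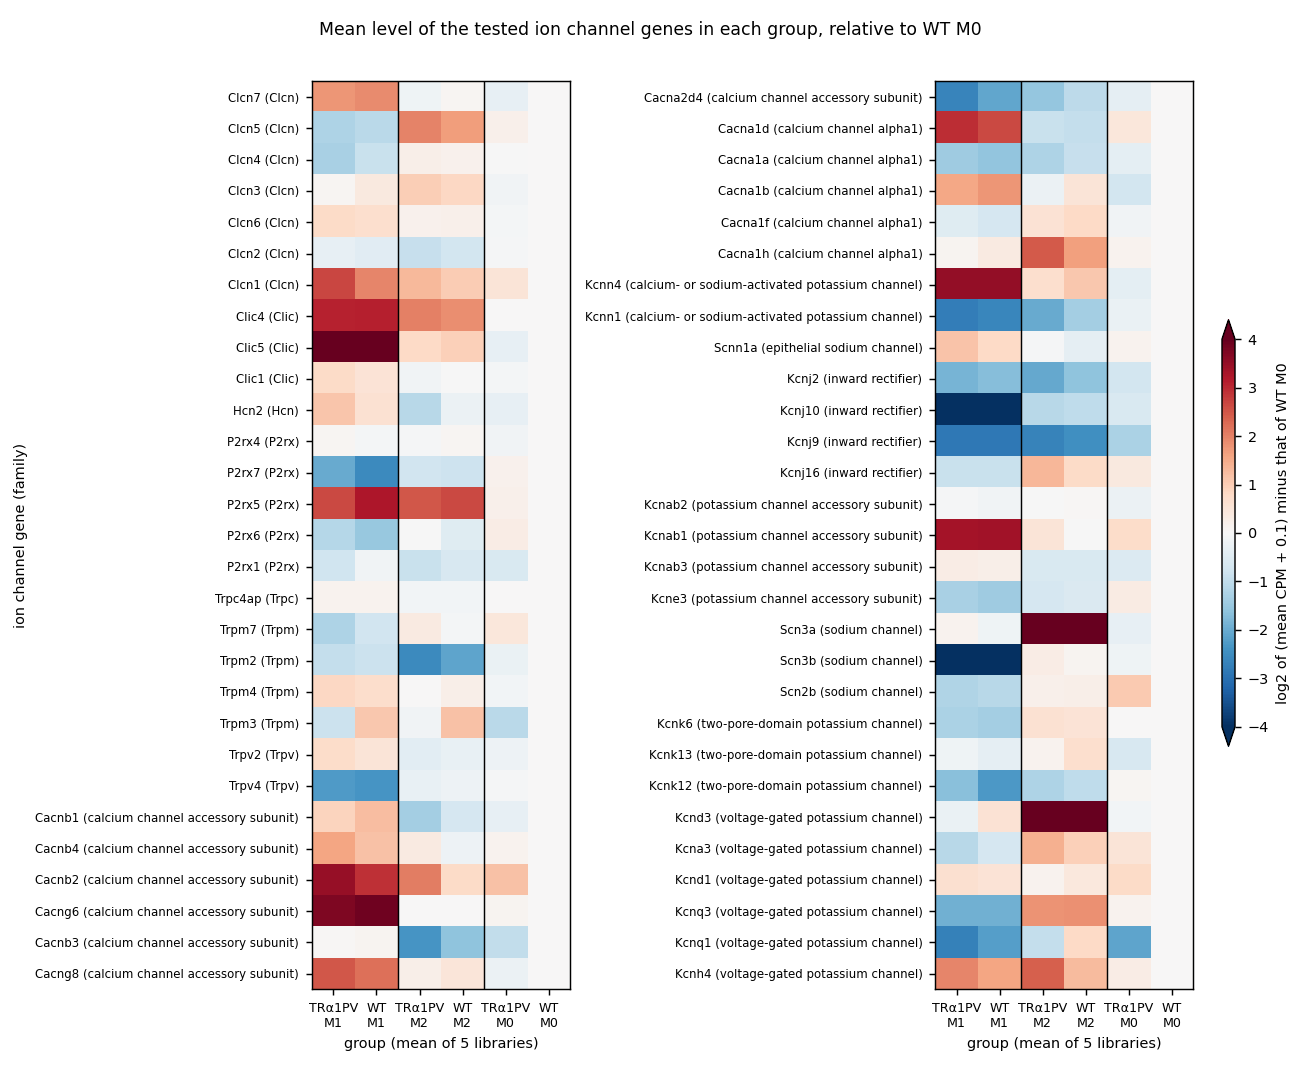
Heat map of 58 of the 61 tested ion channel genes (rows, with their family) in the 6 groups (columns). Colour gives log2 of the group's mean CPM plus 0.1, minus the same for WT M0, on a scale that ends at 4 in each direction. Clic5 is deepest red in the M1 columns, Scn3a and Kcnd3 in the M2 columns, and Scn3b and Kcnj10 deepest blue in M1.

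Polarization to M1 changed most tested ion channel genes in both genotypes. In TRα1PV cells 30 of 61 rose and 23 fell in M1 against M0 (Benjamini-Hochberg adjusted p under 0.05 over all 15686 genes tested), and of all genes tested 40.0% rose and 40.7% fell. In WT cells 29 rose and 25 fell, against 39.4% and 40.2% of all genes, so the shares of ion channel genes were near or slightly above the background. The median log2 fold change over the 61 was 0.21 in TRα1PV and 0.13 in WT cells, against -0.02 over all genes in each. Without WT M0 replicate 2, 28 rose and 26 fell in WT cells. The 29 include Cacna1h, with 3 reads in WT M1 replicate 3 and 1 read in replicate 5. Cacna1h had no read in the other WT M1 libraries or in WT M0. M1 and M2 were both set against the same M0 libraries, so the 2 responses are given side by side and are not independent. Counts by family below are of few genes and stand beside the shares of all genes given for each state.

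Clic5, a member of the chloride intracellular channel family that is known to bind the actin cytoskeleton, was close to silent in M0 and rose in M1 more than any other tested ion channel gene. In TRα1PV cells it was read at 1675, 1858, 1803, 1949 and 2119 CPM in M1 libraries, against 0.855, 1.18, 1, 1.04 and 0.998 CPM in M0 libraries. In WT cells it stood at 1978, 2607, 2654, 2286 and 2597 CPM in M1, against 2.35, 0.485, 1.28, 1.04 and 1.29 CPM in M0. The groups lay far apart, with a log2 fold change of 10.85 ± 0.24 (standard error) in TRα1PV (adjusted p = 4.3e-26) and 10.89 ± 0.24 in WT cells (adjusted p = 3.85e-26). IL-4 raised it far less, to 2.29 ± 0.649 CPM in TRα1PV M2 (SD, n = 5) and 2.6 ± 0.513 CPM in WT M2 libraries, log2 fold changes of 1.19 and 1.03 (adjusted p = 4.9e-05 and 0.00036).

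All 3 tested Clic genes rose in M1 in both genotypes, with median log2 fold changes of 3.07 in TRα1PV and 3.12 in WT cells. Clic4, known to move between the cytosol and the nucleus in activated macrophages, was read at 1882, 1735, 1846, 1756 and 2092 CPM in TRα1PV M1 and at a mean of 889 ± 37.1 CPM in TRα1PV M2 libraries (SD, n = 5), against 198, 221, 219, 243 and 231 CPM in TRα1PV M0. Its WT values were 1742, 1942, 2001, 1817 and 2057 CPM in M1 and 839, 806, 801, 782 and 798 CPM in M2, against 243, 195, 220.3, 216 and 224 CPM in M0. No library of one state overlapped another, and the log2 fold changes were 3.07 ± 0.07 in M1 and 2.00 ± 0.07 in M2 for TRα1PV, and 3.12 ± 0.07 and 1.87 ± 0.07 for WT cells. Clic1, linked in macrophages to phagosomes and to the inflammasome, rose by less in M1, to 453 ± 45.6 CPM in TRα1PV and 389.7 ± 29.2 CPM in WT libraries, against 249 ± 19.1 and 265 ± 28 CPM in M0 (adjusted p = 2.55e-11 and 2.1e-07). In M2 it did not pass the test in either genotype (log2 fold changes -0.05 ± 0.08 and -0.01 ± 0.08).

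The Clcn family, plasma membrane chloride channels and endosomal chloride-proton exchangers, split by member. Clcn7, the lysosomal exchanger that osteoclasts need to resorb bone, was read at 832, 690.4, 755, 714 and 662 CPM in TRα1PV M1, against 167, 196, 166, 167 and 175 CPM in TRα1PV M0. In WT cells it stood at 819.6, 886, 769, 742 and 829 CPM in M1, against 228, 148, 245, 250.3 and 212 CPM in M0. It rose in both (log2 fold changes 2.07 ± 0.10 and 1.90 ± 0.10) and was not called in M2. Clcn5, the endosomal exchanger whose loss in humans causes Dent disease, moved the other way. It was read at 32.1, 38.7, 34.1, 35.4 and 40.2 CPM in TRα1PV M1 and 298, 338, 332, 331 and 362 CPM in TRα1PV M2, against 98, 97.2, 105, 84.3 and 108 CPM in TRα1PV M0. In WT libraries Clcn5 had 34.8, 41.5, 41.7, 38.3 and 43.1 CPM in M1 and 258, 285, 275, 270.2 and 266 CPM in M2, against 69.1, 97, 92.2, 77.5 and 87.7 CPM in M0. It fell in M1 (-1.45 ± 0.08 in TRα1PV and -1.09 ± 0.08 in WT on the log2 scale) and rose in M2 (1.76 ± 0.08 and 1.68 ± 0.08), and no M1 or M2 library overlapped the M0 libraries of its genotype. Of the 8 tested Clcn genes, 5 rose in M1 in each genotype, and 2 in TRα1PV and 3 in WT cells fell. In M2, 5 rose in TRα1PV and 4 in WT cells, and 1 fell in each.

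Among potassium channels, Kcnn4 rose in both states and the inward rectifiers fell in M1. Kcnn4 encodes KCa3.1, a calcium-activated channel that hyperpolarizes activated leukocytes. TRα1PV libraries had 315, 279, 304, 274 and 259 CPM in M1 and 46.8, 38, 38.8, 36.8 and 37 CPM in M2, against 20.1, 20.4, 18.5, 18.3 and 16 CPM in M0. WT libraries had 312, 288, 256, 279.9 and 286 CPM in M1 and 59, 54, 48.1, 48.1 and 52.9 CPM in M2, against 31.9, 18.5, 22.4, 26.8 and 24 CPM in M0. The states did not overlap, and the M1 log2 fold changes were 3.94 ± 0.11 in TRα1PV and 3.52 ± 0.11 in WT cells, with 1.08 and 1.08 in M2. Kcnab1, a cytoplasmic β subunit of Kv1 channels, rose in M1 to 6.67 ± 1.48 CPM in TRα1PV and 6.79 ± 1.45 CPM in WT, against 1.01 ± 0.359 and 0.57 ± 0.304 CPM in M0.

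All 4 tested inward rectifiers, channels that hold the resting potential near that of potassium, fell in M1 in both genotypes. Kcnj9 and Kcnj16 had no read in M1, so no median fold change is given for the family. Kcnj10 (Kir4.1) was read at 0, 0.0786, 0.0358, 0.0378 and 0 CPM in TRα1PV M1, against 1.91, 2.02, 2.08, 1.31 and 1.8 CPM in TRα1PV M0. Its WT values were 0.0683, 0.112, 0, 0 and 0 CPM in M1, against 2.35, 3.98, 2.95, 2.28 and 2.49 CPM in M0. Its neighbour Kcnj9 had no read in any M1 library, against 53 reads over the TRα1PV M0 and 122 over the WT M0 libraries. With a floor of 3 reads over the group, that is at least 9.94-fold lower in TRα1PV and at least 29.3-fold lower in WT M1 cells. Kcnj16, chosen for mention after its values were seen, likewise had no read in M1, against 40 reads in TRα1PV M0, 25 of them in replicate 3, and 15 in WT M0. Its neighbour Kcnj2 (Kir2.1), the inward rectifier known from resting macrophages, was read at 4.52, 4.79, 3.97, 6.57 and 5.4 CPM in TRα1PV M1 and 4.61, 3.96, 3.52, 4.51 and 5.61 CPM in TRα1PV M2, against 11.2, 9.43, 10, 12.1 and 13.3 CPM in TRα1PV M0. WT libraries had 3.96, 5.52, 5.72, 5.54 and 7.58 CPM in M1 and 5.55, 6.71, 5.67, 7.32 and 5.23 CPM in M2, against 16.2, 23.9, 15.7, 14.3 and 23.2 CPM in M0. Every M1 and M2 library lay below every M0 library of its genotype (log2 fold changes -1.15 ± 0.17 and -1.72 ± 0.16 in M1).

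All 3 tested two-pore-domain channels, which carry background potassium current, fell in WT M1. In TRα1PV M1, 2 fell and 1, Kcnk13, rose. In M2, 2 rose and 1 fell in each genotype. Kcnk6 (TWIK2), a potassium efflux channel of the inflammasome pathway, fell in M1 to 28.1 ± 2.39 CPM in TRα1PV and 26.5 ± 1.42 CPM in WT libraries, and rose in M2 to 104 ± 5.8 and 99.1 ± 2.77 CPM, against 67.9 ± 2.38 and 67.7 ± 5.7 CPM in M0. Adjusted p-values in M1 were 2.63e-18 and 7.63e-19. Kcna3 (Kv1.3), the voltage-gated channel of activated leukocytes, averaged at most 1.57 CPM in any group. It rose in M2 in both genotypes (log2 fold changes 1.04 ± 0.30 and 1.08 ± 0.33) and fell in M1 in TRα1PV cells (-1.96 ± 0.41). Its WT M1 value was -0.85 ± 0.40 with an adjusted p of 0.0524.

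**Figure D2:**
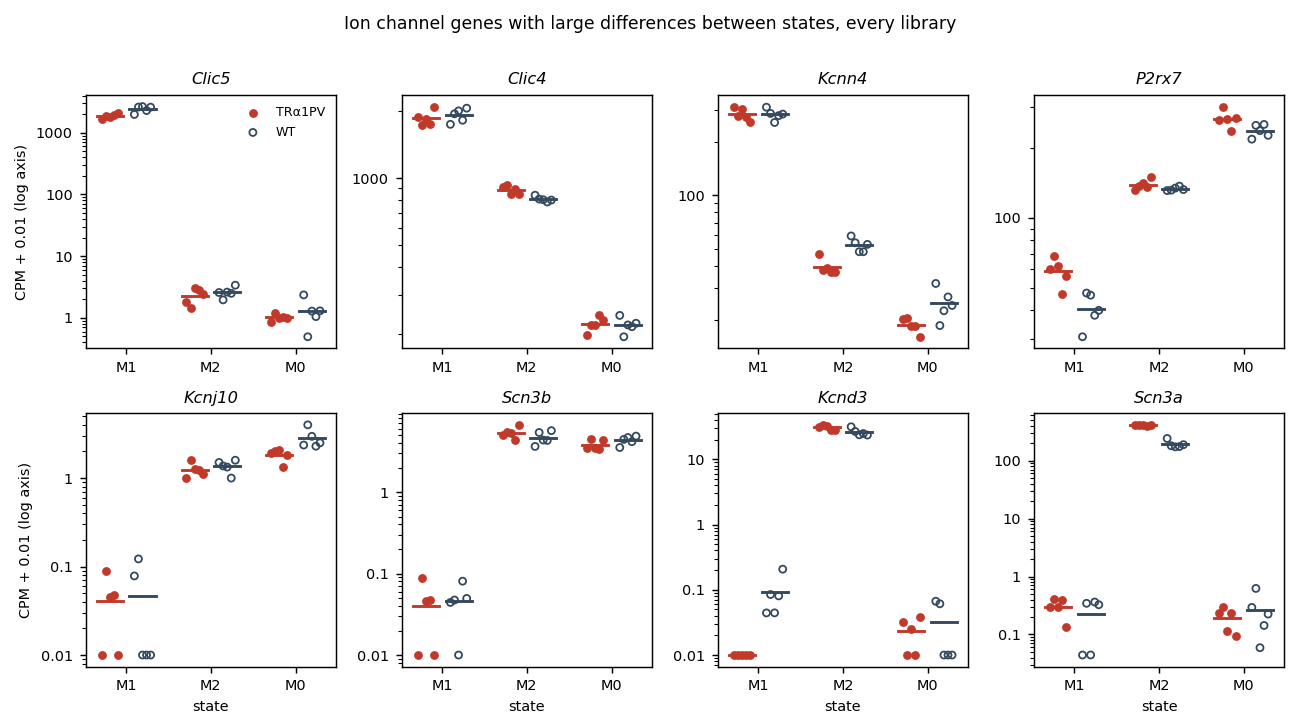
CPM plus 0.01 on a log axis for 8 genes in every library, by state (TRα1PV as filled red points, WT as open points, 5 libraries a group, bars at the mean). Clic5 stands far above its M0 level in M1, Scn3a and Kcnd3 are high in M2 only, and Kcnj10 and Scn3b approach 0 in M1.

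Calcium and sodium channel subunits included some of the largest falls and rises. Cacna1d encodes Cav1.3, a pore-forming subunit of L-type calcium channels. It was read at 100.5, 108, 119, 115 and 114 CPM in TRα1PV M1 and 5.51, 7.49, 7.37, 6.94 and 10.7 CPM in TRα1PV M2, against 16.5, 20, 20.7, 18.3 and 22.2 CPM in TRα1PV M0. WT libraries had 84.8, 76.9, 82.7, 117 and 88.5 CPM in M1 and 8.42, 7.52, 6.78, 7.44 and 6.6 CPM in M2, against 11.7, 16.7, 14, 15.4 and 13 CPM in M0. It rose in M1 and fell in M2 in both genotypes without overlap with M0. Dcp1a, a gene for mRNA decapping on the other strand that overlaps Cacna1d, also stood higher in M1, at 125 CPM in TRα1PV M1 and 128.6 CPM in WT M1, against 34.8 and 34.3 CPM in M0. Whether the counting used strand is not stated, so reads of the 2 genes cannot be told apart where they overlap. Cacna1a, the pore of P/Q-type channels, fell in both states and genotypes, to 21.7 ± 1.28 CPM in TRα1PV M1 and 19.5 ± 0.691 CPM in WT M1, against 44.1 ± 2.61 and 57.9 ± 8.27 CPM in M0. Of the 7 tested accessory subunits, 6 rose in TRα1PV M1 and 5 in WT M1, and 1 fell in each. Of all genes, 40.0% rose in TRα1PV M1 and 39.4% in WT M1. Among the risen subunits were the neighbours Cacng6 and Cacng8, chosen for mention after their values were seen. Both passed the low-count filter through M1, where they are high, so their rise was in part set by the filter. Cacng6 had 174 reads over the TRα1PV M1 libraries and 193 over the WT M1 libraries, against 2 in TRα1PV M0 and 0 in WT M0.

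Of the 4 tested sodium channel genes, 3 fell in M1 in both genotypes. Scn3b, a β subunit, one of the small membrane proteins that modulate the pore and mediate adhesion, was read at 0, 0.0786, 0.0358, 0.0378 and 0 CPM in TRα1PV M1, against 3.44, 4.48, 3.5, 3.33 and 4.3 CPM in TRα1PV M0. In WT cells it had 0.0342, 0.0373, 0, 0.0706 and 0.0395 CPM in M1, against 3.51, 4.42, 4.66, 4.14 and 4.85 CPM in M0. That is 4 and 5 reads over the M1 groups, against 925 and 832 reads over the M0 groups, with log2 fold changes of -6.89 ± 0.31 and -6.77 ± 0.30.

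Receptor channels for ATP did not move together. P2rx7, the ATP-gated channel that starts inflammasome activation, was read at 60.4, 68.3, 62.2, 47.1 and 56.2 CPM in TRα1PV M1 and 132, 138, 141, 135 and 149.7 CPM in TRα1PV M2, against 263, 302, 268, 237 and 268 CPM in TRα1PV M0. WT libraries had 30.7, 47.4, 46.4, 38 and 39.9 CPM in M1 and 131, 132, 134, 137 and 132 CPM in M2, against 219, 251, 238, 253 and 227 CPM in M0. It fell in M1 by 4.55-fold in TRα1PV and 5.86-fold in WT cells, with no overlap of the groups, and by 1.92-fold and 1.78-fold in M2. Its neighbour P2rx4, a channel of lysosomes and the cell surface, differed little between states, at 429.5 ± 28 CPM in TRα1PV M1 and 393 ± 17.3 CPM in TRα1PV M2, against 369 ± 27.2 CPM in TRα1PV M0. In WT cells the values were 384 ± 23.4 CPM in M1 and 427 ± 15.3 CPM in M2, against 406 ± 22.1 CPM in M0. Only the TRα1PV rise in M1 was called (log2 fold change 0.22 ± 0.06, adjusted p = 0.00095). P2rx1 was the 1 tested gene called in none of the 7 pairwise comparisons. With the replicate number as a block its adjusted p was 0.0406 for TRα1PV against WT in M0 and 0.0305 for M2 against M0 in WT.

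The TRP channels also differed by member. Trpv4, a channel opened by swelling and stretch, fell in M1 to 3.15 ± 0.371 CPM in TRα1PV and 2.95 ± 0.571 CPM in WT libraries, against 14.9 ± 2.31 and 15.5 ± 3.71 CPM in M0 (adjusted p = 9.63e-14 and 2.78e-14). It was not called in M2. Trpv2, which takes part in phagocytosis, rose in M1 to 211 ± 23.2 CPM in TRα1PV and 182 ± 14.2 CPM in WT, against 111 ± 8.01 and 127 ± 22.9 CPM in M0. Trpm2, a calcium channel opened by ADP-ribose and oxidative stress, fell most in M2. TRα1PV M2 libraries had 4.42, 5.53, 6.28, 4.8 and 5.76 CPM, against 28.3, 31.4, 26.9, 23.5 and 22.3 CPM in TRα1PV M0. WT M2 libraries had 5.83, 9.03, 6.37, 7.14 and 8.43 CPM, against 30.4, 29.9, 31.3, 36.3 and 30.9 CPM in WT M0. The groups did not overlap, with log2 fold changes of -2.31 ± 0.13 and -2.11 ± 0.13, and the falls in M1 were smaller (-0.71 and -0.86).

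In M2 against M0, 25 of 61 genes rose and 19 fell in TRα1PV cells, where 28.3% of all genes rose and 29.4% fell. In WT cells 21 rose and 16 fell, against 25.2% and 27.2% of all genes. Risen genes were 41.0% and 34.4% of those tested, above the background share in both genotypes, and fallen genes were near it. The median log2 fold change over the 61 was 0.09 in TRα1PV and 0.07 in WT cells, against -0.02 over all genes. Without WT M0 replicate 2, 18 rose and 17 fell in WT cells.

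A voltage-gated sodium channel and a voltage-gated potassium channel were close to silent except in M2. Scn3a encodes Nav1.3, a pore-forming sodium channel known from the developing nervous system. TRα1PV libraries had 404, 414, 412, 388 and 409.8 CPM in M2, against 0.225, 0.288, 0.103, 0.223 and 0.0832 CPM in M0. WT libraries had 241, 180.2, 172, 174 and 188 CPM in M2, against 0.283, 0.613, 0.0491, 0.133 and 0.215 CPM in M0. The log2 fold changes were 11.10 ± 0.25 in TRα1PV and 9.54 ± 0.24 in WT cells (adjusted p = 3.63e-25 and 1.04e-23), and M1 was not called in either. Kcnd3 encodes Kv4.3, a pore of fast-inactivating A-type potassium current. It was read at 31, 33.7, 32.2, 28.3 and 28.5 CPM in TRα1PV M2 and 31.5, 26.7, 23.7, 24.8 and 23.5 CPM in WT M2, where M0 held 3 reads over the TRα1PV and 4 reads over the WT libraries. In TRα1PV cells the ratio of M2 to M0 was 2529.7 (95% exact interval 865.2 to 12270.2, counting error only), and in WT cells the log2 fold change was 10.07 ± 0.26. In M1, Kcnd3 had 11 reads in WT libraries, against 4 in WT M0 (adjusted p = 0.0227), and none in TRα1PV libraries. This call was lost without WT M1 replicate 5, which held 5 of the 11 reads (adjusted p = 0.169), without WT M0 replicate 3 or 4 (0.0536 and 0.0613), and with the compared groups only (0.0844). Scn2a, the next gene to Scn3a on chromosome 2 and a close paralog, was too low to be tested, with 37 reads in TRα1PV M2 and 14 in WT M2, against 0 in M0 of either genotype. How reads that match both genes were assigned is not stated. The 8 neuron and glia markers summed to 0.872 to 1.57 CPM in TRα1PV M2, against 0.590 to 1.04 CPM in TRα1PV M0, and to 1.16 to 3.42 CPM in WT M2, against 0.295 to 0.623 CPM in WT M0. Of these, Snap25, Syt1 and Stmn2 had no read in M2 or M0 libraries, and the part of such cells in these rises was not tested. Further rises in M2 in both genotypes were seen for Clic4, Clcn5, Kcnk6 and Kcnn4, described above.

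Most calls in each state were shared by the 2 genotypes, which share no library. For M1, 47 genes were called in the same direction in both, 88.7% of the TRα1PV calls and 87.0% of the WT calls, and Pearson's r of the log2 fold changes over the 61 genes was 0.954. For M2, 35 genes were shared, 79.5% of the TRα1PV and 94.6% of the WT calls, with r = 0.959. Of all genes tested, 40.0% rose and 40.7% fell in TRα1PV M1, and 39.4% and 40.2% in WT M1. The shared part over all genes was not counted, so these shares do not set ion channel genes apart. These correlations describe genes within one data set, which share the scaling of their libraries, and rest in part on the few genes with very large changes. Kcnk13 was called in opposite directions in M1, and a direct test of the difference between genotypes, given below, called 14 genes for M1 and 0 for M2.

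**Figure D3:**
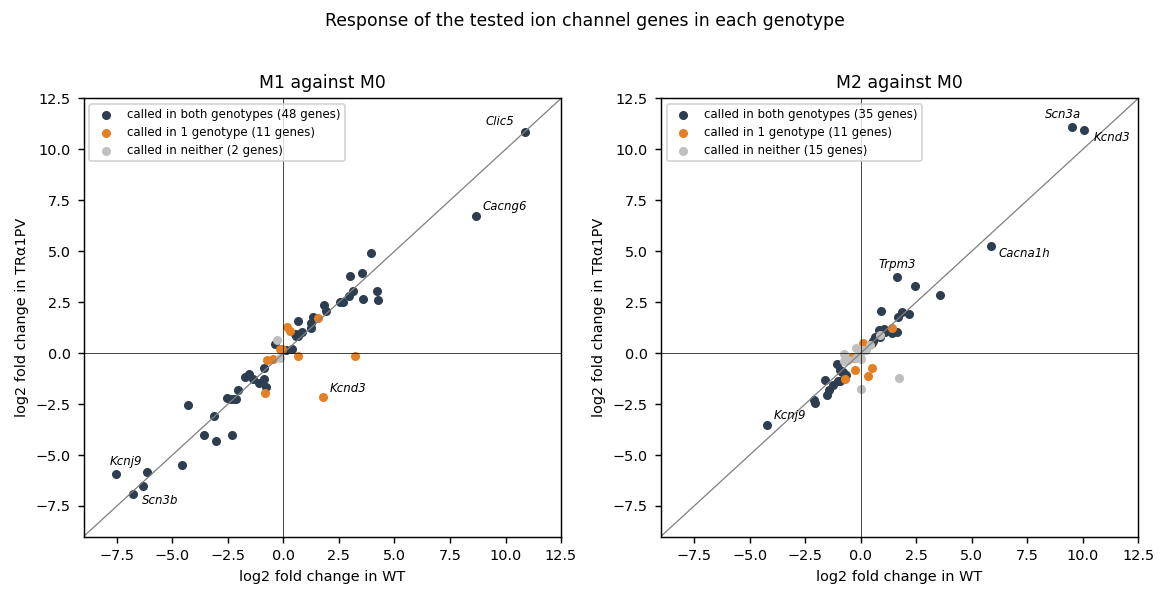
Log2 fold change against M0 in TRα1PV cells (vertical axis) and in WT cells (horizontal axis) for the 61 tested genes, in M1 and in M2. The line marks equal change, and colour gives whether a gene was called in both genotypes, in 1 or in neither. Clic5 lies at the upper right near the line in M1. Scn3a and Kcnd3 lie at the upper right in M2, Scn3a above the line.

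The study's own comparison was TRα1PV against WT within each state. In M0, 7 of 61 ion channel genes were higher and 14 lower in TRα1PV cells, against 12.0% and 14.0% of all genes tested. The lower genes were 23.0% of those tested, above the background, and the higher genes were 11.5%, near it. In M1, 5 were higher and 6 lower, against 9.74% and 10.2% of all genes, shares near the background. In M2, 5 were higher and 13 lower (21.3%), against 6.14% and 6.96% of all genes. The medians over the 61 were -0.11 in M0, 0.00 in M1 and -0.12 in M2 on the log2 scale, against -0.01, 0.00 and -0.01 over all genes. These counts depended in part on single libraries. The 7 higher genes in M0 were 4 without TRα1PV M0 replicate 3 and 4 without WT M0 replicate 4, and the 5 higher genes in M1 were 3 without TRα1PV M1 replicate 1, WT M1 replicate 3 or TRα1PV M1 replicate 5 and 2 without TRα1PV M1 replicate 3. Without WT M0 replicate 2, 7 were higher and 15 lower in M0.

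Markers of other cells differed between the genotypes in the same libraries. Of 7 tested fibroblast and stromal markers (Col1a1, Col3a1 and others), all 7 were lower in TRα1PV M0, 4 in M1 and 5 in M2, with sums of 1.69 to 2.88 CPM in TRα1PV M0, against 6.60 to 19.6 CPM in WT M0. In M2 the sums were 1.19 to 2.53 CPM in TRα1PV and 3.72 to 13.5 CPM in WT. Of 9 tested markers of neutrophils and their precursors, 9 were higher in TRα1PV M0, 1 in M1 and 6 in M2, with sums of 177.6 to 365.4 CPM in TRα1PV M0 and 48.4 to 209.4 CPM in WT M0. In M1 these sums were 5.68 to 11.3 CPM in TRα1PV and 3.48 to 5.29 CPM in WT. Of 3 tested megakaryocyte and platelet markers, 2 were higher in TRα1PV M0, 2 in M1 and 1 in M2, with sums of 218.1 to 374.8 CPM in TRα1PV M0 and 151.2 to 213.0 CPM in WT M0. The part of any of these cell types in the differences of ion channel genes was not tested.

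Trpm3 and Cacnb1 were lower in TRα1PV cells in all 3 states. Trpm3, a heat- and steroid-gated calcium channel of sensory neurons, was read at a low level, with 0.0273, 0.112, 0.178, 0.0569 and 0.124 CPM in TRα1PV M2 and 0.359, 0.348, 0.414, 0.54 and 0.295 CPM in WT M2. In M1 it had 3 reads over the TRα1PV libraries and 51 over the WT libraries, a ratio of WT to TRα1PV of 17.2 (95% exact interval 5.55 to 85.9). In M0 there was 1 read in TRα1PV and 24 in WT libraries. Adjusted p was 0.00425 in M2, 0.000128 in M1 and 0.000692 in M0. No TRα1PV library exceeded 0.178 CPM, so Trpm3 passed the low-count filter through WT libraries only. Its lower TRα1PV level was thus in part set by the filter, and these p-values are a description. A pseudogene within Trpm3, AC124513.1, did not follow it, with 3.81 CPM in TRα1PV M2 and 3.93 CPM in WT M2. Cacnb1, a β subunit that brings calcium channel pores to the membrane, had 3.08, 3.28, 3.37, 3.24 and 2.84 CPM in TRα1PV M2, against 4.8, 4.56, 5.09, 5.61 and 5.61 CPM in WT M2. In M1 the libraries had 15.7, 13.2, 16.1, 16.7 and 15.4 CPM in TRα1PV and 16.1, 19.1, 18.2, 22.1 and 21.7 CPM in WT. In M0 they had 6.84, 6.53, 6.33, 6.29 and 6.74 CPM in TRα1PV and 7.02, 7.55, 9.01, 9.69 and 7.88 CPM in WT. The genotypes did not overlap in M2 or M0 and overlapped in M1, with log2 fold changes of -0.33 ± 0.09 in M1, -0.70 ± 0.10 in M2 and -0.33 ± 0.09 in M0.

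M0 and M2 share no libraries, but their libraries carry the same replicate numbers. The labels do not state whether same-numbered libraries came from the same marrow, so the M0 and M2 differences may not be independent. In common were 11 genotype differences, all in the same direction, 52.4% of the 21 calls in M0 and 61.1% of the 18 calls in M2. The shared part over all genes was not counted. The 11 included Cacna1a, Cacna1b, Cacnb1, Cacnb3, Kcnk13, Kcnn4, Kcnq1 and Trpm3, lower in TRα1PV, and Cacnb2 and Clcn5, higher. The M0 call of Clcn5 was lost without any 1 of TRα1PV M0 replicates 1, 2, 3 and 5 or WT M0 replicates 1, 4 and 5 (adjusted p up to 0.171). It was also lost with no low-count filter (adjusted p = 0.0698) and with the compared groups only (0.159). Only Cacnb1 and Trpm3 were called in the same direction in M1. Pearson's r over the 61 genes was 0.672 between the effects in M0 and M2, 0.53 between M0 and M1 and 0.25 between M1 and M2, as a description.

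Kcnq1 (Kv7.1), a slowly activating potassium channel, was low in TRα1PV cells. It was read at 0.0225, 0.105, 0.103, 0 and 0.0277 CPM in TRα1PV M0, against 0.963, 0.332, 0.54, 0.531 and 0.399 CPM in WT M0. In M2 it had 0.3, 0.253, 0.385, 0.0569 and 0.198 CPM in TRα1PV, against 0.966, 1.07, 0.869, 1.2 and 1.02 CPM in WT. The groups did not overlap, with log2 fold changes of -3.32 ± 0.48 in M0 and -2.16 ± 0.37 in M2. In M1, 0 reads stood against 6, which the test did not call (adjusted p = 0.0849). Kcnq1 passed the low-count filter through its WT libraries, so its lower TRα1PV level was in part set by the filter. Kcnq1ot1, the long antisense RNA of the same locus, averaged 18.6 CPM in TRα1PV M0 and 14.2 CPM in WT M0, and 26.1 CPM in TRα1PV M2 and 14.2 CPM in WT M2, and reads of the pair cannot be told apart without strand.

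Calcium channel β subunits went in both directions. Cacnb2 had 0.158, 0.131, 0.443, 0.239 and 0.25 CPM in TRα1PV M0, against 0.085, 0, 0.0491, 0.0664 and 0.0614 CPM in WT M0. In M2 it had 0.518, 0.309, 0.414, 0.796 and 0.593 CPM in TRα1PV, against 0.249, 0.116, 0.0414, 0.24 and 0.161 CPM in WT. It was higher in TRα1PV in both states with no overlap (2.23 ± 0.49 and 1.66 ± 0.38), on 66 reads against 10 in M0. Cacnb3 was lower, with 0.293, 0.341, 0.31, 0.191 and 0.333 CPM in TRα1PV M0, against 0.906, 0.434, 0.663, 0.796 and 0.583 CPM in WT M0 (log2 fold change -1.22 ± 0.24). In M2 its call rested on 10 reads against 27 and was lost without WT M2 replicate 1 (adjusted p = 0.0721). Pore genes also went in both directions. Cacna1d, whose overlap with Dcp1a is given above, was higher in TRα1PV M0 (log2 fold change 0.46, adjusted p = 0.00653) and not called in M1 or M2. Cacna1a was lower in TRα1PV M0 and M2. It had 40.4, 47.1, 42.5, 45 and 45.3 CPM in TRα1PV M0 and 54, 54.2, 51.6, 72.2 and 57.5 CPM in WT M0. The M2 values were 22.5, 23.4, 24.5, 25.2 and 27.7 CPM in TRα1PV and 30.6, 30.6, 28.7, 30.2 and 33.2 CPM in WT (log2 fold changes -0.39 ± 0.07 in M0 and -0.31 ± 0.07 in M2, no overlap in either).

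Several potassium channel genes were lower in TRα1PV M0 cells. Kcnd1 and the β subunit gene Kcnab1 were called higher there, and Kcnk6 and Kcna3 were not called. The Kcnab1 call was lost without any 1 of WT M0 replicates 1 and 4 and TRα1PV M0 replicates 3 and 4, and with the compared groups only (adjusted p up to 0.117). Kcnk13 (THIK-1), the potassium channel that in mouse microglia sets the resting potential and serves interleukin-1β release, had 16.1, 19.3, 18.2, 16.8 and 16.9 CPM in TRα1PV M0, against 28.7, 21.4, 28, 28.1 and 29.2 CPM in WT M0. In M2 it had 31.5, 30.4, 29.5, 30 and 28 CPM in TRα1PV, against 44.7, 43.6, 42.4, 39.3 and 44.2 CPM in WT. The genotypes did not overlap (log2 fold changes -0.63 ± 0.10 and -0.52 ± 0.10). Kcnj2 was lower in M0 with no overlap (-0.73 ± 0.16, adjusted p = 0.000809). Its M2 value was -0.45 ± 0.17, with an adjusted p of 0.0689 that fell to 0.0328 with the replicate block. Kcnj9 was lower in M0 (-1.59 ± 0.32, 53 reads against 122). It passed the low-count filter through its WT M0 libraries, so this difference was in part set by the filter. Its neighbour Kcnj10 was also lower in M0 (-0.63 ± 0.21). The Kcnj10 call was lost without any 1 of WT M0 replicates 2 and 3 and TRα1PV M0 replicates 4 and 5 (adjusted p up to 0.0893). Kcnn4 was lower in M0 and M2, with log2 fold changes of -0.41 ± 0.10 and -0.41 ± 0.10.

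Scn3a was higher in TRα1PV M2. Every TRα1PV library lay above every WT library in the values given above, with means of 405 ± 10.4 CPM in TRα1PV and 191 ± 28.5 CPM in WT M2 (SD, n = 5 each), a log2 fold change of 1.08 ± 0.14 and an adjusted p of 3.38e-06. The 5 M2 markers (Arg1, Retnla and others) summed to 15146.6 to 18536.6 CPM in TRα1PV M2 and 13009.7 to 15571.9 CPM in WT M2. In M0 the sums were 945.5 to 1081.6 CPM in TRα1PV and 534.0 to 856.1 CPM in WT. Of these 5 markers, 1 was called higher and 0 lower in TRα1PV M2, and 2 higher and 2 lower in M0. The link of M2 markers to Scn3a was not tested. Trpm2, lower in M2 than in M0, was lower still in TRα1PV M2 (-0.46 ± 0.14). This call was lost without TRα1PV M2 replicate 1 or 4 or WT M2 replicate 2 or 5 (adjusted p 0.0548 to 0.0801). Kcnh4 was higher in TRα1PV M2, on 118 reads against 35 (1.47 ± 0.38).

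**Figure D4:**
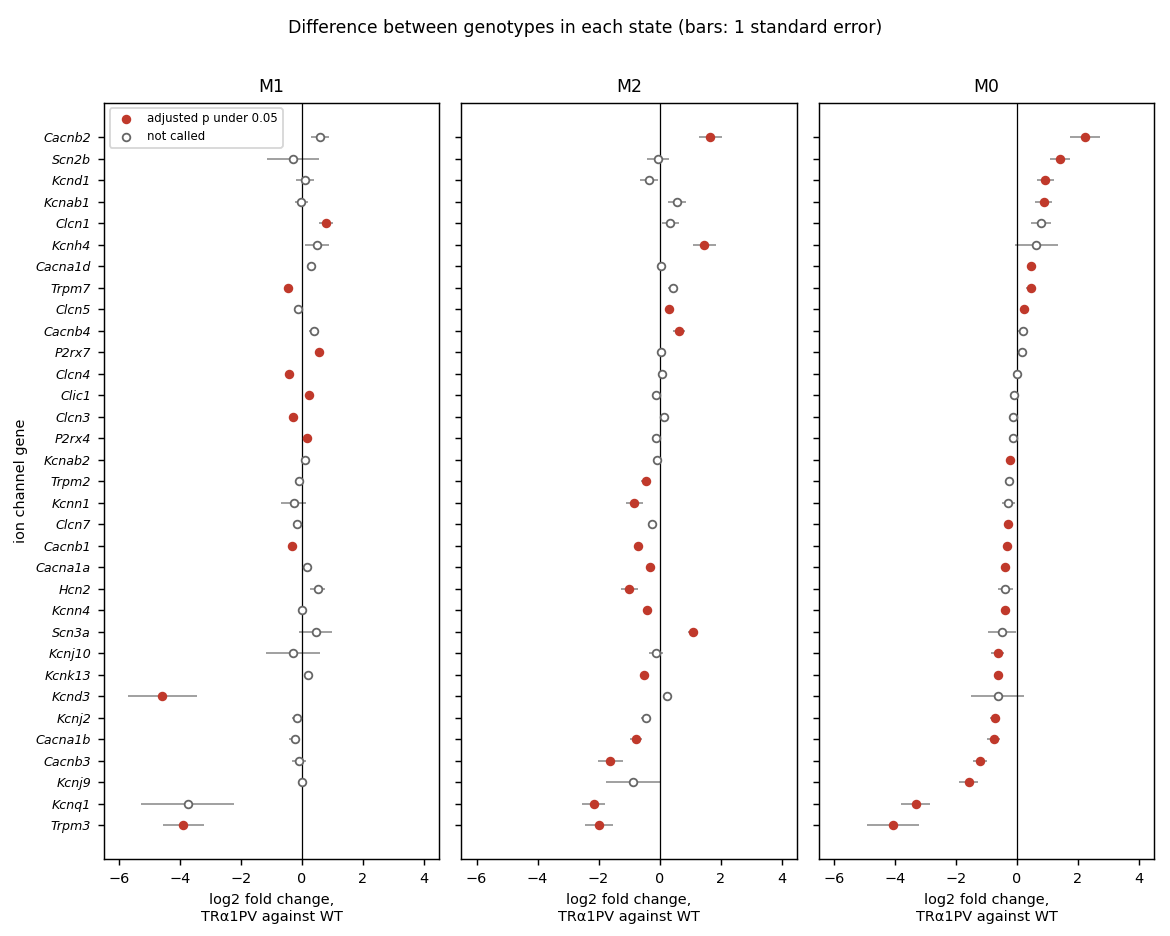
Log2 fold change of TRα1PV against WT with 1 standard error, in M1, M2 and M0, for 33 of the 36 ion channel genes called in at least 1 state. Filled points are called (adjusted p under 0.05) and open points are not, and a gene with no read in either group (Kcnj9 in M1) is drawn at 0. Trpm3 and Kcnq1 lie farthest to the left in M0 and Cacnb2 farthest to the right.

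P2rx7 was higher in TRα1PV M1, with means of 58.8 ± 7.87 CPM in TRα1PV and 40.5 ± 6.78 CPM in WT (SD, n = 5 each), a log2 fold change of 0.54 ± 0.09 and an adjusted p of 8.6e-05. The lowest TRα1PV library, at 47.1 CPM, lay just under the highest WT library, at 47.4 CPM. Clcn4 and Clcn3, endosomal chloride-proton exchangers, were lower in TRα1PV M1 (-0.42 ± 0.07 and -0.31 ± 0.08). Clcn1, the chloride channel of muscle, was higher (0.78 ± 0.24), and its call was lost without TRα1PV M1 replicate 1 or 3 or WT M1 replicate 5 (adjusted p 0.0505 to 0.0655). Kcnd3 had no read in TRα1PV M1 and 11 in WT M1, at least 3.7-fold lower against a floor of 3 reads over the group. WT M1 replicate 5 held 5 of the 11 reads, and without it the bound was 2.47-fold. P2rx4 and Clic1 were called at adjusted p of 0.0455 and 0.0497. Each of these calls was lost without TRα1PV M1 replicate 1, 3 or 5 or WT M1 replicate 1, 3 or 4, and that of Clic1 also without TRα1PV M1 replicate 2 (adjusted p up to 0.153 for P2rx4 and 0.175 for Clic1). Both were also lost with no low-count filter (0.194 for P2rx4 and 0.123 for Clic1) and with the compared groups only (0.0902 and 0.0601).

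Whether the genotype difference itself depended on state was tested directly. The effect in M1 differed from that in M0 for 14 of 61 genes, higher for 10 and lower for 4, against 13.3% of all genes in each direction. The 10 were 6 without WT M0 replicate 1, WT M0 replicate 4, WT M1 replicate 3, TRα1PV M1 replicate 3 or TRα1PV M0 replicate 5 and 4 without TRα1PV M1 replicate 1. The 4 were 2 without TRα1PV M1 replicate 1 or WT M0 replicate 4, and without WT M0 replicate 2 the counts were 12 and 6. The effect in M2 differed from that in M0 for 0 genes in edgeR's test, against 0.701% of all genes higher and 1.46% lower. At an unadjusted p under 0.05 there were 8 of 61, and the share of all genes at that threshold was not counted. DESeq2 and limma-voom also called 0 after adjustment. Without WT M0 replicate 3 the M2 effect of Scn3a was called (adjusted p = 0.0289), and without TRα1PV M0 replicate 5 that of Scn2b (adjusted p = 0.0338).

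Kcnk13 gave the smallest p for a dependence on state. In M1 its libraries overlapped, with 25.2, 27.7, 28.2, 20.1 and 19.1 CPM in TRα1PV and 23.6, 22.3, 16.2, 23.4 and 19 CPM in WT, where in M0 all TRα1PV libraries had lain below all WT libraries. It rose in M1 against M0 in TRα1PV cells (log2 fold change 0.46 ± 0.10) and fell in WT cells (-0.37 ± 0.10), a difference of 0.83 ± 0.15 (adjusted p = 0.000184). In each genotype the M1 and M0 libraries of Kcnk13 overlapped. The lowest TRα1PV M1 library had 19.1 CPM and the highest TRα1PV M0 library 19.3 CPM. The highest WT M1 library had 23.6 CPM and the lowest WT M0 library 21.4 CPM. Trpm7, a magnesium- and calcium-permeable channel fused to a kinase, showed the opposite turn. It was read at 42.2, 60.9, 45.3, 66.4 and 62.2 CPM in TRα1PV M1 and 64.4, 71.2, 89.2, 81 and 71.6 CPM in WT M1. In M0 it had 158, 148, 207, 193 and 183 CPM in TRα1PV and 93.7, 187, 123, 96.1 and 148 CPM in WT. The groups overlapped in both states, the difference of the effects was -0.90 ± 0.22 (adjusted p = 0.00328), and the call held in each other fit and without each library in turn. The effects by themselves were weaker. The higher level in M0 (0.45 ± 0.15) lost its call without any 1 of TRα1PV M0 replicates 3 and 4 and WT M0 replicates 1, 3 and 4 (adjusted p up to 0.0999). It also lost its call with the compared groups only (adjusted p = 0.112). The lower level in M1 (-0.45 ± 0.15) lost its call without any 1 of TRα1PV M1 replicates 1 and 3 and WT M1 replicates 2 to 5 (adjusted p up to 0.128). In M2 the value was 0.43 ± 0.15, with an adjusted p of 0.0559, or 0.0340 with the replicate block.

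Cacna1a was the other gene with a strong dependence on state. Its libraries had 22.1, 20.8, 21.5, 20.3 and 23.6 CPM in TRα1PV M1 and 18.7, 20, 19.4, 19.2 and 20.4 CPM in WT M1, slightly higher in TRα1PV without passing the test, where M0 was lower, a difference of 0.54 ± 0.10 (adjusted p = 0.000426). Clcn4 differed by -0.41 ± 0.10, P2rx4 by 0.30 ± 0.08 and Cacnb3 by 1.11 ± 0.33 (adjusted p = 0.0151, or 0.0504 with no filter on low counts). Kcnj2 had a difference of 0.57 ± 0.23, with an adjusted p of 0.0654, or 0.0381 with the replicate block.

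**Figure D5:**
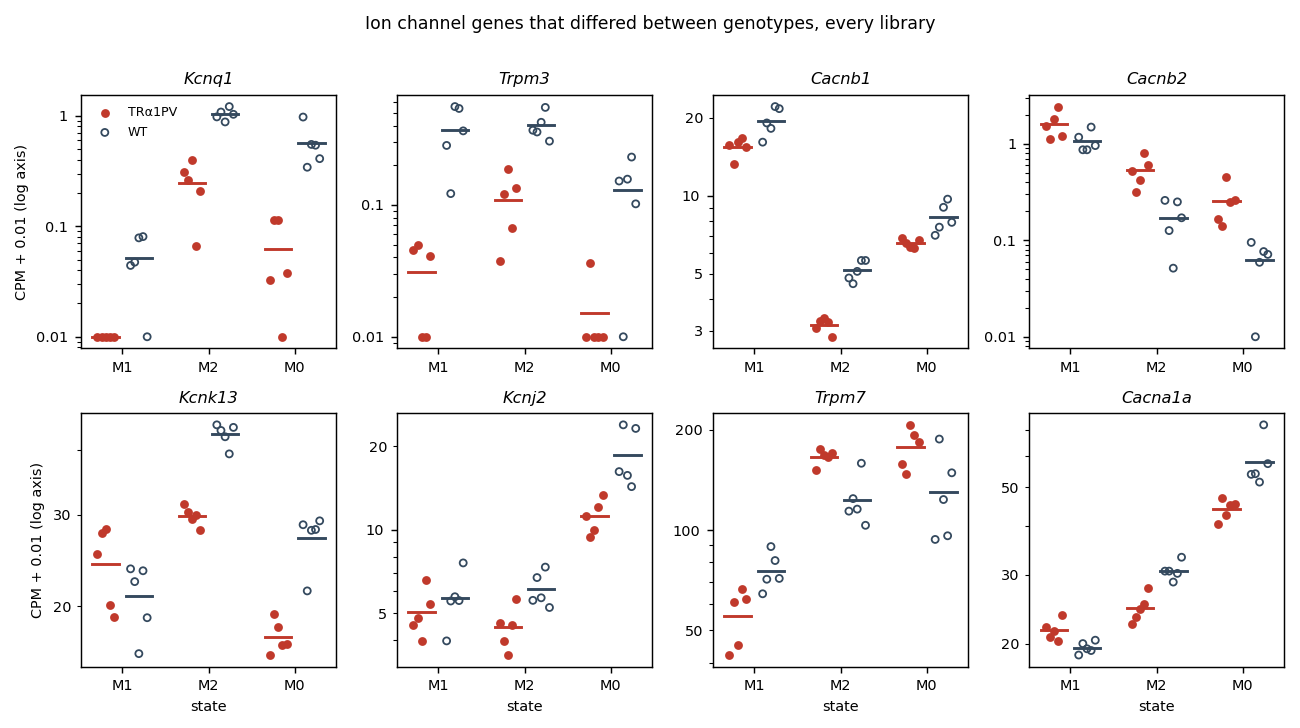
CPM plus 0.01 on a log axis for 8 genes in every library, by state (TRα1PV as filled red points, WT as open points, bars at the mean of 5 libraries). Kcnq1 and Trpm3 lie lower in TRα1PV, Cacnb2 higher in M2 and M0, and Kcnk13, Trpm7 and Cacna1a change the order of the genotypes between M1 and M0.

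Other channel genes and ion transporters, listed from general knowledge, were read alongside. Of 39 tested channel genes that the symbol rule does not take in (54 listed), 16 rose and 13 fell in TRα1PV M1 (as did 40.0 and 40.7% of all 15686 tested genes), and 16 rose and 15 fell in WT M1 (39.4 and 40.2%). In M2, 13 rose and 19 fell in TRα1PV (as did 28.3 and 29.4% of all) and 10 rose and 18 fell in WT cells (25.2 and 27.2%). TRα1PV against WT called 6 higher and 4 lower in M1 (background 9.74 and 10.2% of all), 3 higher and 6 lower in M2 (6.14 and 6.96%), and 2 higher and 7 lower in M0 (12.0 and 14.0%). Against the same shares of all genes, of 30 tested pumps and exchangers (48 listed), 10 rose and 14 fell in TRα1PV M1, and 9 rose and 18 fell in WT M1. In M2, 11 rose and 12 fell in TRα1PV and 10 rose and 14 fell in WT cells. Between genotypes 5 were higher and 3 lower in TRα1PV M1, 4 and 6 in M2, and 3 and 11 in M0.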

How the data were processed

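Bone marrow macrophage libraries were made from polyA RNA with the KAPA mRNA HyperPrep kit, per the labels' protocols. The authors deposited 1 table of raw read counts per gene for each library. Trimmomatic 0.39, HISAT2 2.2.1 and HTSeq 1.99.2 and the build GRCm39 are named in the submitters' processing notes, with neither the annotation release nor the strand setting given in the sources used here. Reads that the tables give to no gene were 22.042 to 28.128% of all and were left out, and libraries held 23015952 to 59086252 reads in genes. Symbols, gene types, neighbours and promoters came from tables of build GRCm38, matched by gene ID or symbol, and no coordinates were carried between builds.

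One edgeR 4.0.16 quasi-likelihood fit (R 4.3.3) over all 30 libraries had a mean per group, TMM factors and a filterByExpr minimum count of 10, and tested 15686 genes with 24 residual degrees of freedom. Tests were two-sided with Benjamini-Hochberg adjustment, called at 0.05, in 9 comparisons. Standard errors were taken as the log2 fold change divided by the root of the F statistic, and are approximate. Intervals and floors of 3 reads cover counting error only. Levels are CPM of reads in genes. The test was also run on counts simulated with the estimated dispersions, with few genes changed in a single group. Most genes changed between states here, so that run does not show how calls behave in these data. No 2 libraries of a group agreed within sampling noise (chi-square per degree of freedom of at least 6.67 over 60 pairs).

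The members and lists were chosen with earlier results of these data known. Genes were named by a rule: in each comparison of genotypes and each interaction up to 10 called genes by smallest p, in each comparison of states the 6 largest increases and decreases once genes whose log2 CPM averaged below 0 were set aside, the 8 genes with the highest mean CPM, and 15 genes with a textbook role in macrophages. Other members named in the text (Cacna1h, Cacng6, Cacng8, Kcnj16, P2rx1, Scn2a, Hcn3, Trpc4ap and names in lists of calls) were chosen after their values were seen. A few genes and 1 searched motif are not reported here, and the genes are counted in all totals.

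The labels give each library a biological replicate number under a batch tag, shared across groups. The main comparison has no pairing, and the replicate block uses that number. Correlations of same-numbered libraries' deviations from their group means between genotypes ran from -0.17 to 0.17 (M1), from -0.0229 to 0.212 (M2) and from -0.374 to 0.259 (M0), and between states from -0.24 to 0.331. Between M2 and M0 the mean was 0.184 for same-numbered and -0.0459 for other TRα1PV libraries, and 0.0527 and -0.012 for WT libraries. Alternatives were RLE size factors, the replicate block, no low-count filter, limma-voom (limma 3.58.1), DESeq2 1.42.0, the compared groups only, leaving out each library, and a minimum 2-fold change.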

Additional observations from a re-analysis of the deposited data

Results flagged for a closer look

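In 6 of 135 gene and group combinations 1 library lay far from the other 4 of its group, and chance alone sets about 1 in 20 apart in this way. Kcnn4 had 46.8 CPM in TRα1PV M2 replicate 1, against 38.8 CPM in the next library. Cacna1d had 117.1 CPM in WT M1 replicate 4 (next 88.5 CPM), and Scn3a 241.0 CPM in WT M2 replicate 1 (next 188.3 CPM). WT M0 replicate 4 was highest for Cacna1a, at 72.2 CPM (next 57.5 CPM), and for Trpm2, at 36.3 CPM (next 31.3 CPM). Kcnk13 was lowest in WT M0 replicate 2, the library with the most mitochondrial reads, at 21.4 CPM (next 28.0 CPM).

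For 13 named genes of the 14 called, the difference between TRα1PV and WT was not the same in M1 as in M0, by the interaction term of edgeR's quasi-likelihood fit. On the log2 scale the effect in M1 minus that in M0 was 0.83 for Kcnk13, 0.54 for Cacna1a, 1.11 for Cacnb3, 0.42 for Kcnn4, 0.37 for P2rx7, 0.30 for P2rx4, 0.35 for Kcnab2, 0.40 for Trpv2 and 0.31 for Clic1. It was -0.41 for Clcn4, -0.90 for Trpm7, -0.36 for Clcn5 and -1.64 for Cacnb2. Without TRα1PV M1 replicate 1 the adjusted p was 0.0589 for Kcnn4, 0.0542 for P2rx7, 0.0528 for Kcnab2 and 0.0522 for Clcn5. The Kcnn4 call was also lost without TRα1PV M1 replicate 3, TRα1PV M0 replicate 5, WT M1 replicate 3 or WT M0 replicate 1 or 4 (up to 0.0759). That of P2rx7 was also lost without TRα1PV M1 replicate 2 or 3, TRα1PV M0 replicate 4, WT M1 replicate 1 or 4 or WT M0 replicate 4 (up to 0.0703), and that of Clcn5 without WT M0 replicate 1 or 4 (up to 0.0541). The calls of Kcnn4, P2rx7 and Kcnab2 were also lost with no low-count filter (adjusted p = 0.0528, 0.0672 and 0.0502). With the compared groups only they were lost as well (0.0586, 0.0856 and 0.0514). The calls of Trpv2 (adjusted p = 0.0339), Clic1 (0.0391) and Cacnb2 (0.0355) were each lost without the low-count filter and without any 1 of several libraries, with adjusted p up to 0.0802, 0.0993 and 0.11. Between genotypes, 1 of 9 tested neutrophil markers was called in M1 and 9 in M0, and 4 of 7 fibroblast markers in M1 and 7 in M0, and their part in these values was not tested.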

How the results depend on the processing

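Of 351 combinations of a named gene and a comparison, 291 kept their side of the threshold in every alternative other than the minimum 2-fold change, which was applied to counts only, among them 152 of the 185 called, and none that was called changed direction. With a minimum 2-fold change, TRα1PV against WT gave 2 higher and 4 lower genes in M0, 1 and 2 in M1 and 3 and 3 in M2. That setting left 9 genes lower in M2 in WT and 16 higher and 12 lower in M2 in TRα1PV cells, and 1 higher and 1 lower for the M1 effect minus the M0 effect. With no low-count filter, 3 genes were higher in TRα1PV M1 and 3 in the M1 minus M0 effect. With the compared groups only, 3 were higher in TRα1PV M0, 3 in M1 and 9 in M2, and 4 in the M1 minus M0 effect. Limma-voom gave 8 higher in TRα1PV M2. The shares of all genes at these settings, and with 1 library left out, were not counted. These counts therefore do not set ion channel genes apart, and the cause of the shifts was not tested.

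Leaving out 1 library at a time, TRα1PV against WT gave 2 to 5 higher and 5 to 7 lower genes for M1, 4 to 6 higher and 9 to 14 lower for M2, and 4 to 7 higher and 11 to 15 lower for M0. In M1 against M0, 29 to 30 rose and 23 to 24 fell in TRα1PV, and 27 to 29 rose and 24 to 26 fell in WT cells. In M2 against M0, 22 to 25 rose and 16 to 19 fell in TRα1PV, and 18 to 22 rose and 14 to 18 fell in WT cells. The M1 minus M0 effect was higher for 4 to 12 and lower for 2 to 6 genes, and the M2 minus M0 effect for 0 to 1 in each direction.

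The replicate block moved no count by more than 1.5 times. It changed 10 of 549 calls over all tested genes, all newly called. Beside those in the report these were Clcn4 (adjusted p = 0.0317), Kcnab3 (0.0460) and Trpm4 (0.0482) for M2 against M0 in WT, and Cacnb4 in M1 (0.0470) and Cacna1h in M2 (0.0451) for TRα1PV against WT. Genes with few reads, such as Trpm3, Kcnq1 and Cacnb2, are limited by depth.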

Other observations

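Outside the symbol rule, several channels and transporters with large or repeated differences were chosen for mention after their values were seen. Piezo1, the mechanically gated channel, averaged 696.0 ± 87.1 CPM in TRα1PV M1 and 158.3 ± 10.7 CPM in TRα1PV M0, and 612.7 ± 51.8 CPM in WT M1 and 164.7 ± 30.6 CPM in WT M0 (SD, n = 5 each). Lrrc8c, a subunit of volume-regulated anion channels, averaged 216.0 ± 12.6 CPM in TRα1PV M1 and 36.1 ± 1.07 CPM in TRα1PV M0, with log2 fold changes of 2.58 in TRα1PV and 2.70 in WT cells. Atp1b3, a β subunit of the sodium pump, rose in M1 by 3.03 in TRα1PV and 3.25 in WT cells on the log2 scale. Slc9a9, an endosomal sodium-proton exchanger, fell to 4.39 ± 1.75 CPM in TRα1PV M1 and 4.81 ± 1.49 CPM in WT M1, against 359.4 ± 30.7 CPM in TRα1PV M0 and 305.6 ± 12.3 CPM in WT M0.

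Lrrc8d, another anion channel subunit, was lower in TRα1PV than in WT cells in all 3 states, with log2 fold changes of -0.34 in M1, -0.28 in M2 and -0.42 in M0 (adjusted p of 2.51e-06, 5.28e-05 and 3.41e-08 in edgeR's quasi-likelihood test). Gja1, the gap junction protein connexin 43, was higher in TRα1PV M2 and M0, with log2 fold changes of 1.16 and 1.11. Gja1 is also known from fibroblasts, whose markers were lower in the same TRα1PV libraries, and the part of such cells in the Gja1 difference was not tested.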
